A study of Homo sapiens with 6 samples.

Results

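The genes described here are 10 innate epithelial defence and acute-phase genes: A2M, LCN2, SAA1, SAA2, C3, CFB, PI3, SLPI, DEFB1 and DEFB4A. They were found as the rows of a gene count table that carry these 10 names, among 26334 rows in all. The set was put together after A2M and inflammatory genes had been seen to be higher in shWDR5 than in shLuc cells of this same experiment. Their differences between the groups are therefore given as a description, with no p-value for any of them.

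RNA was sequenced from MCF10DCIS.com (MCF10DCIS), an established human breast cancer cell line of basal-like type that models ductal carcinoma in situ. The 3 shLuc samples carried a pRSI-U6 vector expressing a hairpin against luciferase, which these cells do not have, and the 3 shWDR5 samples carried the same vector with a hairpin against WDR5, a core subunit of the histone H3 lysine 4 methyltransferase complexes. Cells of both groups expressed TagRFP and a puromycin resistance gene from the vector, were selected with puromycin and grew in medium with horse serum. The labels name 1 shWDR5 vector, whereas the paper describes pooled WDR5 hairpins. No source used here says how long after infection the RNA was taken or whether replicates were separate infections, so p-values measure only the spread between these samples, which may be technical.

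These genes belong to the chemical defence of epithelia and to the acute-phase response. Complement C3 and factor B form the alternative complement pathway, in which C3 is the central opsonin precursor and factor B supplies the protease of the C3 convertase. Lipocalin-2 binds bacterial siderophores and so keeps iron from bacteria. Serum amyloid A proteins, alpha-2-macroglobulin, elafin (PI3) and SLPI are secreted apolipoproteins or protease inhibitors, and the beta-defensins are small cationic peptides that kill microbes. In liver and in epithelia many of them are induced by IL-1, TNF, IL-17 and IL-6 through NF-kB, C/EBP and STAT3.

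Counted reads ranged from 38218108 to 57640167 per sample. WDR5, the targeted gene, had 52.8, 48.6 and 51.5 CPM in the 3 shLuc samples and 23.3, 24.2 and 20.7 CPM in the 3 shWDR5 samples, where CPM is the read count scaled to library size (TMM). It was 2.22-fold lower in shWDR5 cells (log2 fold change -1.15, SE 0.07, edgeR adjusted p = 8.7e-07). The summed level of 6 basal and epithelial markers (KRT5, KRT14, KRT17, TP63, EPCAM and CDH1) lay between 3843 and 4042 CPM in shLuc and between 6033 and 6813 CPM in shWDR5, with the first 4 called higher and EPCAM and CDH1 lower. ESR1 and PGR together stayed at or below 4.12 CPM in every sample. Of 16117 genes that passed the low-count filter, 26.6% were called higher and 29.9% lower in shWDR5 at an adjusted p under 0.05.

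Of the 10 genes, 8 passed the filter and all 8 were called higher in shWDR5 cells, beside 26.6% of all genes tested that were called higher and 56.5% called in either direction. Because the set was chosen on this contrast, nothing is read from that count. In all 8 the 3 shWDR5 samples lay above the 3 shLuc samples in CPM, a pattern found in 29.3% of all genes tested, with the opposite one in 33.1%. With the fold and level thresholds of the study added (log2 fold change of at least 0.6, RPKM over 0.5), 7 of the 8 were called higher, beside 7.89% of all genes tested, and C3 was not. The level limit was set on the higher group mean, and A2M (0.365 RPKM in shLuc, 1.59 RPKM in shWDR5) met it only in shWDR5. These are bulk samples, in which more cells with the transcript and more transcript per cell cannot be told apart. The differences varied in size: SAA1, A2M, SAA2 and PI3 were more than 4-fold higher, SLPI, CFB and LCN2 between 2.34-fold and 2.58-fold higher, and C3 1.47-fold higher. DEFB1 and DEFB4A were at the limit of detection.

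**Figure D1:**
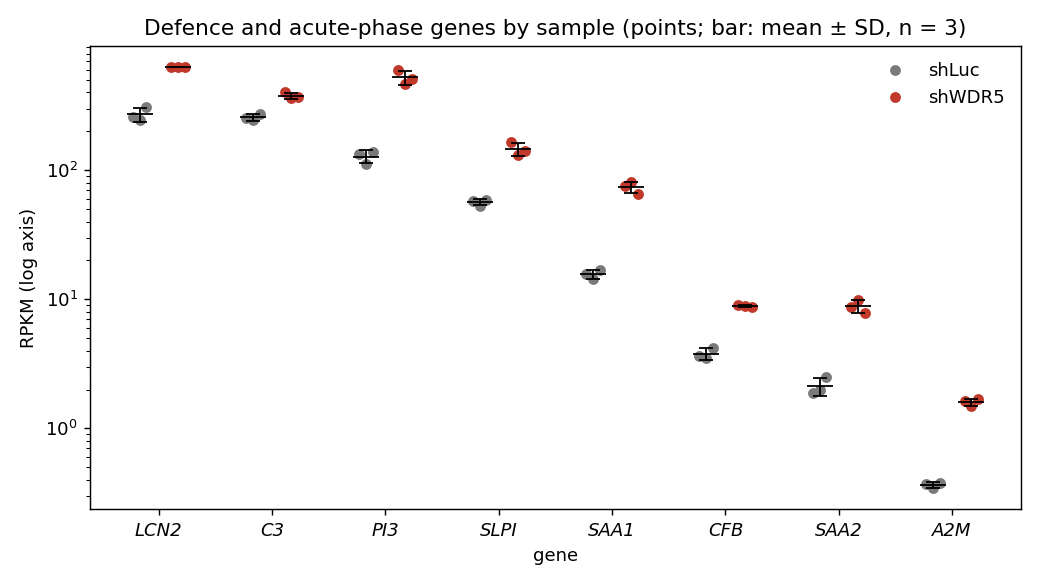
Level of the 8 measurable genes in each sample, as reads scaled to exon length and library size (RPKM, log axis), with points for samples and bars for mean ± SD of 3 samples per group. In each gene the red shWDR5 points lie above the grey shLuc points, from LCN2 at 270 and 628 RPKM to A2M at 0.365 and 1.59 RPKM.

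Among the 8 tested genes, SAA1, A2M and SAA2 had the largest fold changes, with intervals that overlap that of PI3. SAA1 encodes serum amyloid A1, an apolipoprotein that replaces ApoA-I on high-density lipoprotein during inflammation. It had 10.7, 9.77 and 11.4 CPM in shLuc and 51.2, 54.7 and 44.6 CPM in shWDR5. The lowest shWDR5 sample was thus well above the highest shLuc sample, with a 4.76-fold difference (95% interval of the fit 4.13 to 5.49). SAA2, its close paralog, had 4.37, 4.65 and 5.86 CPM in shLuc and 20.3, 23.2 and 18.3 CPM in shWDR5. This was a 4.20-fold difference (3.46 to 5.08), and again no shLuc sample reached the shWDR5 range.

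SAA1 (chromosome 11, 18287808 to 18291523, plus strand, hg19) and SAA2 (chromosome 11, 18259780 to 18270221, minus strand) lie beside each other in opposite orientation. The end of their reference coding sequences is printed because it shows how hard it is to assign a read to one of the pair. Both are 369 bases long in GENCODE, and they differ at 11 bases (97.0% identity). The stretch from base 201 to base 369 holds 10 of these, marked by capitals.
SAA1: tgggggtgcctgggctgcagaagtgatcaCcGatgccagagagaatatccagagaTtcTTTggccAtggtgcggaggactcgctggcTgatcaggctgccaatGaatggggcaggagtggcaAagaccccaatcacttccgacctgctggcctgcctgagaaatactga
SAA2: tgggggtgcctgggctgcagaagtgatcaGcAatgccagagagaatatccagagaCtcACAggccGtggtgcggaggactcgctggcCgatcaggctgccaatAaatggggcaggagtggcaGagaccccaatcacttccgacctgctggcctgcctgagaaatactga
The longest run of coding bases without a difference is 186 bases. Of the 862 distinct 50-base stretches in SAA1 transcripts, 402 also occur in SAA2. The read length and the handling of reads with several alignments are not given in the sources used here, so the division of reads between the pair is uncertain. Summed, which removes that division but not any reads left uncounted, SAA1 and SAA2 had 15.6 ± 1.48 CPM (SD, n = 3) in shLuc and 70.7 ± 7.49 CPM (SD, n = 3) in shWDR5. Per length, SAA1 exceeded SAA2 in every sample, by a ratio of 8.41, 7.23 and 6.68 in shLuc and of 8.67, 8.12 and 8.42 in shWDR5. These ranges overlap, with means of 7.44 ± 0.882 and 8.40 ± 0.273 (SD, n = 3 each). The ratio depends on the gene lengths in the count table, 677 bases for SAA1 and 2331 bases for SAA2, and in reads, without lengths, its means were 2.16 and 2.44. A read-through gene, SAA2-SAA4, shares 306 exon bases with SAA2 and was listed at 0 reads in all samples.

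A2M (chromosome 12, 9220304 to 9268558, minus strand) encodes alpha-2-macroglobulin, a plasma protein that traps proteases of all classes. It had 85, 62 and 71 reads in shLuc and 351, 395 and 354 reads in shWDR5. As CPM these were 1.73, 1.60 and 1.76 against 7.55, 6.91 and 7.80, so the replicates were close together in each group and the groups far apart. The difference was 4.38-fold (95% interval 3.74 to 5.12), and 1.03% of the genes tested had a larger log2 fold change. The level itself was low: 0.365 ± 0.018 RPKM (SD, n = 3) in shLuc and 1.59 ± 0.098 RPKM (SD, n = 3) in shWDR5, the lowest of the 8 genes in both groups. An antisense gene, A2M-AS1, shares 132 exon bases with A2M. A2M-AS1 had 10, 18 and 13 reads in shLuc and 29, 34 and 30 reads in shWDR5 and was also called higher (log2 fold change 0.96, SE 0.28, edgeR adjusted p = 0.013). It passed the low-count filter only with its shWDR5 samples. The library kit named in the labels is not described as stranded, and without strand the reads in the shared bases cannot be told apart.

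The secreted elastase inhibitors PI3 and SLPI both had high levels. PI3 (chromosome 20, 43803540 to 43805185, plus strand) encodes elafin, an inhibitor of neutrophil elastase and proteinase 3. It had 73.4, 61.4 and 77.0 CPM in shLuc and 331, 259 and 281 CPM in shWDR5, a 4.14-fold difference (95% interval 3.52 to 4.86). SLPI (chromosome 20, 43880880 to 43883205, minus strand) encodes secretory leukocyte protease inhibitor, which acts on elastase and cathepsin G. It had 34.6, 31.5 and 35.2 CPM in shLuc and 98.2, 78.1 and 83.5 CPM in shWDR5, a 2.58-fold difference (2.25 to 2.96). The shWDR5 samples were spread in the same order in both genes, with Rep1 highest and Rep2 lowest. Per length, PI3 exceeded SLPI by a ratio of 2.24 ± 0.130 (SD, n = 3) in shLuc, at most 2.35, and of 3.61 ± 0.030 (SD, n = 3) in shWDR5, at least 3.57. PI3 was thus the more abundant of the pair in all 6 samples, and its lead was wider in each shWDR5 sample than in any shLuc sample. None of the 50-base stretches of PI3 or SLPI occurs in transcripts of another gene.

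LCN2 (chromosome 9, 130911732 to 130915734, plus strand), the lipocalin-2 gene, had 211, 201 and 254 CPM in shLuc and 517, 517 and 514 CPM in shWDR5. This was a 2.34-fold difference (95% interval 2.07 to 2.65). All shLuc samples lay below the shWDR5 samples. The coefficient of variation was 12.5% in shLuc and 0.331% in shWDR5, but 3 samples per group are too few to compare spreads. LCN2 shares no 50-base stretch with another gene.

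The complement genes differed in level and in size of change. C3 (chromosome 19, 6677846 to 6720693, minus strand) had 1307, 1249 and 1406 CPM in shLuc and 2059, 1844 and 1883 CPM in shWDR5. It was the smallest difference of the 8, 1.47-fold (95% interval 1.33 to 1.62), and 12.7% of the genes tested had a larger log2 fold change. CFB (chromosome 6, 31913721 to 31919861, plus strand), which encodes complement factor B, had 9.58, 9.17 and 11.1 CPM in shLuc and 23.6, 23.2 and 23.0 CPM in shWDR5. Its difference was 2.36-fold (2.09 to 2.67), and its interval does not meet that of C3. In the reference annotation 41.4% of the 50-base stretches of CFB transcripts also occur in a read-through transcript, AL645922.1, which is no row of the count table. Per length, C3 exceeded CFB by a ratio of 69.9, 69.7 and 65.1 in shLuc and of 44.6, 40.6 and 41.8 in shWDR5. C3 thus remained far more abundant than factor B, with a narrower gap in each shWDR5 sample than in any shLuc sample.

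**Figure D2:**
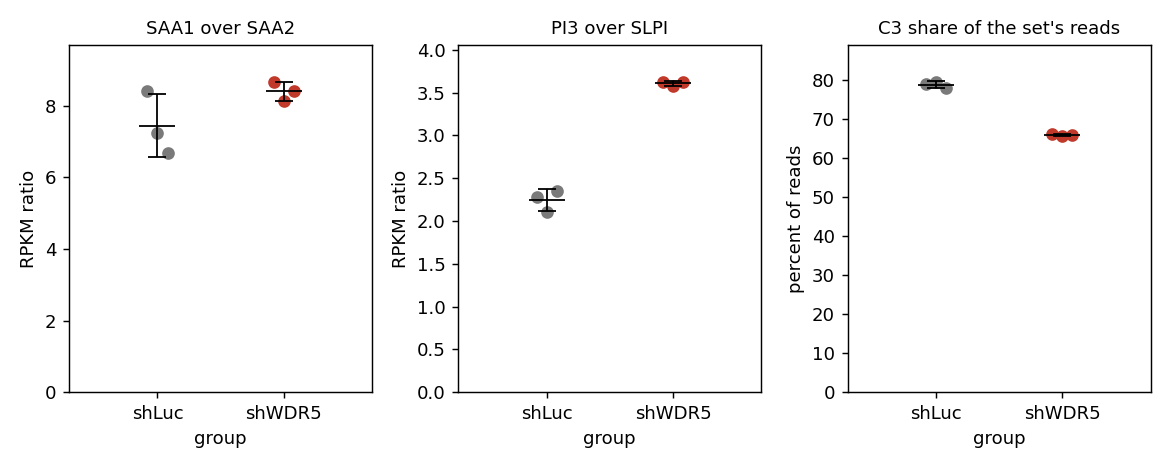
RPKM ratio of SAA1 over SAA2 (left) and of PI3 over SLPI (middle), and percentage of the set's reads that came from C3 (right), with points for samples and bars for mean ± SD of 3 samples per group. The SAA ratios overlap between groups, whereas the PI3 ratio is higher (2.24 and 3.61 on average) and the C3 share lower (78.9% and 66.0%) in each shWDR5 sample.

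Both beta-defensin genes were at the limit of detection. DEFB1, which is constitutively made by many epithelia, had 0, 1 and 1 reads in shLuc and 2, 0 and 0 reads in shWDR5. At these counts no fold is given. DEFB4A, the inducible human beta-defensin 2 gene, had 0, 0 and 1 reads in shLuc and 7, 3 and 4 reads in shWDR5. Summed over the samples these were 1 and 14 reads, a ratio of 12.0 after scaling with an exact binomial 95% interval from 1.83 to 509 that covers counting error only. DEFB4A has a near-identical copy, DEFB4B, which was listed at 0 reads in all samples, and 233 of the 331 distinct 50-base stretches of DEFB4A occur in that copy. Reads that could be placed on either copy may not have been counted.

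Levels of different genes can be compared only per length. In shLuc the order by RPKM was LCN2 (270 ± 33.9, SD, n = 3), C3 (257 ± 15.4), PI3 (127 ± 14.7), SLPI (56.6 ± 3.36), SAA1 (15.7 ± 1.19), CFB (3.78 ± 0.38), SAA2 (2.13 ± 0.34) and A2M. LCN2 and C3 did not differ beyond their spread in these samples. In shWDR5 the order was LCN2 (628 ± 2.08), PI3 (524 ± 66.2), C3 (376 ± 22.3), SLPI (145 ± 17.5), SAA1 (74.1 ± 7.51), CFB (8.87 ± 0.11), SAA2 (8.83 ± 1.06) and A2M. PI3 had passed C3, each of its samples being above each C3 sample, and CFB and SAA2 were no longer separated beyond their spread. The place of SAA2 relative to CFB in both groups depends on its length in the count table, 2331 bases against 677 for SAA1. A shorter length would place SAA2 higher. Among all genes tested in RPKM, PI3 moved from rank 427 to rank 109, SAA1 from rank 4214 to rank 863, and A2M from rank 13599 to rank 10985.

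The 10 genes made up 0.168%, 0.159% and 0.184% of all counted reads in shLuc and 0.303%, 0.278% and 0.281% in shWDR5. C3 supplied most of these reads, 79.1%, 79.6% and 78.0% in shLuc and 66.3%, 65.7% and 65.9% in shWDR5. The share of the other genes was therefore larger in each shWDR5 sample. Within shLuc, Rep3 had the highest CPM of the group in all 8, and Rep2 the lowest in all but SAA2, where Rep1 was lowest. The share of all genes tested with Rep3 highest was not computed, so nothing is read from this order. In shWDR5 no sample was highest throughout: Rep1 led for C3, CFB, PI3 and SLPI, Rep2 for SAA1 and SAA2, and Rep3 for A2M, while the LCN2 samples were nearly equal.

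**Figure D3:**
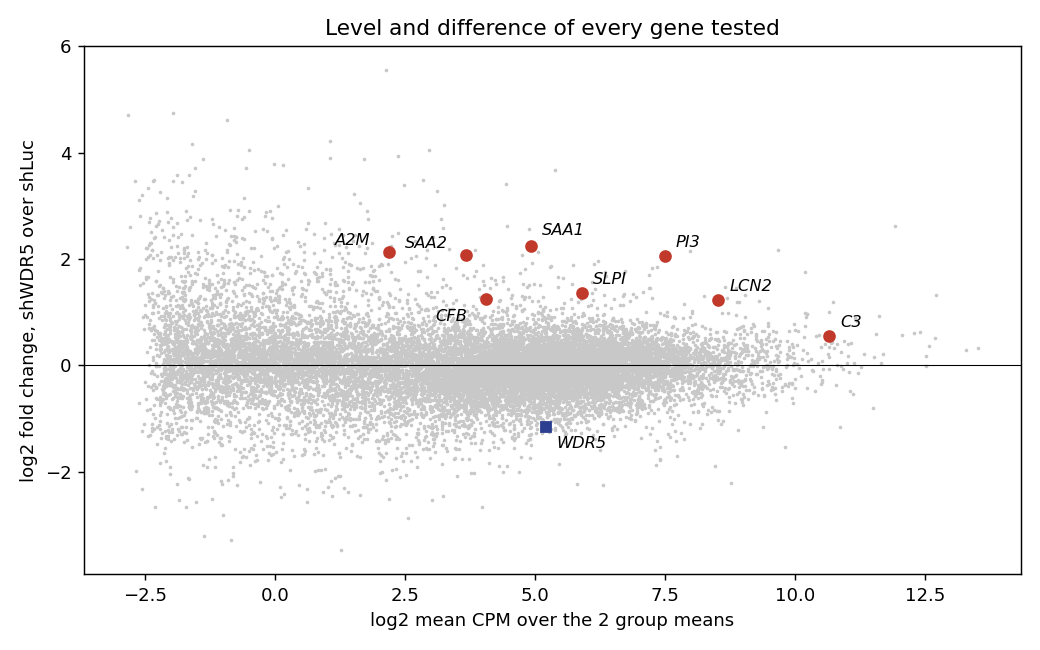
Mean level (log2 CPM, x axis) and log2 fold change of shWDR5 over shLuc (y axis) for the 16117 genes tested (grey), with the 8 measurable genes of the set in red and WDR5 as a blue square. The red points run from A2M at the low end to C3 at the high end, all above 0, and WDR5 lies at -1.15.

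Genes beside the 8 on the chromosome were read out to show whether neighbours differed as well. C2 ends 270 bases before CFB and NELFE lies 3 bases after it. C2, a complement protease gene, had a log2 fold change of -0.06 (SE 0.24, edgeR adjusted p = 0.85) and NELFE one of -0.03 (SE 0.06, edgeR adjusted p = 0.68). Neither was called, whereas CFB between them was. TNFSF14, the gene of the cytokine LIGHT, lies 7247 bases from C3 and was called higher (log2 fold change 1.52, SE 0.10, edgeR adjusted p = 9.0e-07), while GPR108 on the other side was not (0.14, SE 0.06, edgeR adjusted p = 0.082). SAA4, the third serum amyloid gene of the cluster, had 1, 4 and 11 reads in shLuc and 17, 21 and 18 reads in shWDR5 and was called higher (1.57, SE 0.51, edgeR adjusted p = 0.023). SAA4 passed the low-count filter only with its shWDR5 samples. Of the genes on either side of LCN2, C9orf16 was called higher (0.49, SE 0.07, edgeR adjusted p = 0.000237) and PTGES2-AS1 was not (-0.09, SE 0.08, edgeR adjusted p = 0.37). HPS5, beyond SAA1, was not called (0.06, SE 0.07, edgeR adjusted p = 0.48). The seminal genes SEMG1 and SEMG2, which lie between PI3 and SLPI, were listed at 0 reads in all samples. Beside A2M, LINC00612 had 3, 1 and 2 reads in shLuc and 6, 10 and 8 reads in shWDR5. PZP, on its other side, had 0, 0 and 2 reads against 4, 2 and 6. WFDC12, beside PI3, had 7, 1 and 4 reads against 10, 15 and 14, and MATN4, beside SLPI, 8, 12 and 4 against 11, 4 and 9. LINC00612, PZP, WFDC12 and MATN4 did not pass the low-count filter and were not tested.

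The promoters of LCN2 and CFB are shown because RefSeq promoter windows (GRCh38.p14) were found for these 2 of the 10 genes. CFB was taken up here once the table had been searched. Each is the 250 bases before the start site, on the plus strand, at chr9:128149203-128149452 for LCN2 and chr6:31945845-31946094 for CFB. Capitals mark matches on either strand to a loose NF-kB pattern (GGG, then 5 bases of any kind, then CC), a C/EBP-like pattern (TTNNGNAA) or an AP-1 pattern (TGANTCA).
LCN2: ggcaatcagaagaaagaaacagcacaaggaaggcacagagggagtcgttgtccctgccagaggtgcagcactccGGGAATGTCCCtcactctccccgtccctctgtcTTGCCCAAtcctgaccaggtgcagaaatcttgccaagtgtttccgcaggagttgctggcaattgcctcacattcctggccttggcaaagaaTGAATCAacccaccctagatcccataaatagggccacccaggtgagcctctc
CFB: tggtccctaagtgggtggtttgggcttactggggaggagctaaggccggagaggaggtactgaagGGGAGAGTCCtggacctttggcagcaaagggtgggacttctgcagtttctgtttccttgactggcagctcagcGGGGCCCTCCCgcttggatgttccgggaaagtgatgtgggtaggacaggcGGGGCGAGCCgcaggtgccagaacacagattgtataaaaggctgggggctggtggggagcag
The LCN2 window holds 2 matches to the NF-kB pattern, which overlap each other, 1 to the C/EBP-like pattern and 1 to the AP-1 pattern. The CFB window holds 4 matches to the NF-kB pattern, of which one pair overlaps, and 0 to the other patterns. The same patterns occur in 54.4%, 33.2% and 6.57% of all promoter windows of this length, so the first is found in most promoters, and a match of letters is no measured binding site.

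Related genes were taken from 5 lists drawn from textbook knowledge, with edgeR's quasi-likelihood test adjusted over all genes. All 5 lists were drawn up with earlier results of these data known, so their counts are descriptions and not independent evidence. Over all genes tested, 26.6% were called higher and 29.9% lower. C9, TF, HPX, PGLYRP4, TNF and C3AR1 passed the low-count filter only with their shWDR5 samples, the group where they were higher. Without a low-count filter each of them was still called. Of 24 further complement genes, 15 were tested, 5 were called higher, 3 lower and 7 not called, and the median log2 fold change was -0.03, beside -0.01 over all genes tested. C1S, a classical pathway protease, rose 3.70-fold, from 3.63 ± 0.82 to 13.3 ± 0.952 CPM (SD, n = 3 each, adjusted p = 1.8e-06). C1R, its partner protease, chosen after its values were seen, had means of 8.02 CPM in shLuc and 7.71 CPM in shWDR5. It was not called (log2 fold change -0.05, adjusted p = 0.64). MASP2, a lectin pathway protease, rose with a log2 fold change of 0.84 (adjusted p = 0.00022). C9, a pore-forming component, rose with one of 1.66 (adjusted p = 0.0077) at no more than 18 reads per sample.

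The complement genes called lower were inhibitors that protect host cells, but not all regulators on the list fell. CD46 (log2 fold change 0.17, edgeR adjusted p = 0.070) and CFI (-0.23, edgeR adjusted p = 0.11) were not called. Both were chosen after their values were seen. CD55, which speeds decay of the C3 convertase, had 57.6, 58.8 and 54.9 CPM in shLuc and 26.9, 29.3 and 28.2 CPM in shWDR5. It was 2.02-fold lower (adjusted p = 6.7e-07), with no overlap between groups. CLU, the clusterin gene, had a log2 fold change of -0.49 (adjusted p = 0.0029). CD59, which blocks the membrane attack complex, had one of -0.18 (adjusted p = 0.015), and without shLuc Rep3 this call was lost (-0.14, adjusted p = 0.052). C4A and C4B, which are near-identical copies of each other, were listed at 0 reads in all samples and were chosen after their values were seen.

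Of 20 further acute-phase genes, 11 were tested, 9 were called higher and 0 lower, with a median log2 fold change of 0.97. CP, the copper-binding ferroxidase ceruloplasmin, rose 4.40-fold, from 12.5 ± 3.50 to 54.5 ± 3.77 CPM (SD, n = 3 each, adjusted p = 1.8e-06). HPX, which binds free heme, rose 3.90-fold (adjusted p = 0.00016) and ITIH4 rose 3.10-fold (adjusted p = 8.2e-05), both at levels near or below 1 CPM. TF, the transferrin gene, had 8, 4 and 0 reads in shLuc and 20, 19 and 19 in shWDR5 (log2 fold change 2.04, SE 0.52, adjusted p = 0.0064), and the log2 fold change was 2.90 without shLuc Rep1 and 1.51 without shLuc Rep3. The most abundant of the list, chosen after its values were seen, was SERPINA3, the alpha-1-antichymotrypsin gene, at 815 ± 80.4 and 1582 ± 126 CPM (1.95-fold higher, adjusted p = 4.6e-06).

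Liver markers were read beside these genes, since the liver makes most plasma acute-phase protein. ALB had 2 to 9 reads per sample, APOA2 0 to 4, TTR 0 or 1 and APOB 0 or 1, and their sum ran from 0.102 to 0.129 CPM in shLuc and from 0.105 to 0.220 CPM in shWDR5. CRP and FGA were listed at 0 reads in all samples, HP had at most 2 reads and ORM1 at most 1, these 4 being chosen after their values were seen. The hepatocyte markers were thus near 0 in both groups, and several plasma acute-phase genes were near 0 with them.

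Of 31 further antimicrobial genes, 15 were tested, 10 were called higher and 0 lower, with a median log2 fold change of 0.95. S100A8, a subunit of the metal-chelating protein calprotectin, rose 15.4-fold, from 0.618 ± 0.224 to 9.68 ± 0.909 CPM (SD, n = 3 each, adjusted p = 1.4e-07). RNASE7, an antimicrobial ribonuclease of skin, rose 4.51-fold, from 5.25 ± 0.078 to 23.5 ± 2.11 CPM (adjusted p = 8.1e-08). BPIFB1, a secreted protein of airway epithelium, rose with a log2 fold change of 2.38 (adjusted p = 3.4e-05) and PGLYRP4, which binds bacterial peptidoglycan, with one of 2.58 (adjusted p = 0.00022). Among the 5 tested but not called, LYZ, the lysozyme gene, had a log2 fold change of -0.11 (adjusted p = 0.48) and CAMP, the cathelicidin gene, one of 0.21 (adjusted p = 0.53). LYZ and CAMP were chosen after their values were seen.

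Of 16 receptors, partners and target proteases of the 10 proteins, 10 were tested, 8 were called higher and 0 lower, with a median log2 fold change of 0.54. MMP9, the gelatinase that forms a complex with lipocalin-2, had 6.59, 6.33 and 5.29 CPM in shLuc and 88.9, 59.0 and 84.3 CPM in shWDR5. It rose 12.8-fold (adjusted p = 1.2e-07). ITGB2 and ITGAM, the subunits of complement receptor 3, rose 10.7-fold (adjusted p = 3.1e-08) and 3.93-fold (adjusted p = 0.00018). C3AR1, the C3a receptor gene, had a log2 fold change of 1.41 (adjusted p = 0.015), a call lost without shLuc Rep2 (1.25, adjusted p = 0.053).

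Since ITGB2, ITGAM and C3AR1 are genes of leukocytes, leukocyte markers were read beside them. PTPRC, the CD45 gene, had 1, 0 and 1 reads in shLuc and 7, 4 and 4 reads in shWDR5. CD3E was at 0 reads in all samples, CSF3R had at most 2 and MPO at most 5. The summed level of these and of CD14 and CD68 ran from 12.1 to 14.7 CPM in shLuc and from 11.2 to 13.2 CPM in shWDR5, with CD14 called lower (log2 fold change -1.05). Their part in the result was not tested. ELANE, PRTN3 and CTSG, the neutrophil proteases that PI3 or SLPI inhibits, had at most 2 reads in any sample and were chosen after their values were seen.

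Of 24 cytokines, receptors and transcription factors known to act on such genes, 23 were tested, 16 were called higher and 3 lower, with a median log2 fold change of 0.48. This list was drawn up knowing that inflammatory genes were higher, so its direction is not independent evidence. IL1A had 175, 180 and 168 CPM in shLuc and 325, 366 and 357 CPM in shWDR5 and rose 2.02-fold (adjusted p = 5.6e-07). TNF rose with a log2 fold change of 2.40 (adjusted p = 1.9e-05), IL17C with one of 1.74 (adjusted p = 1.5e-05) and IL36G with one of 1.58 (adjusted p = 0.00066), all at levels below 3 CPM in every sample. The 3 genes that fell were the receptor genes IL1R1 (log2 fold change -0.80, adjusted p = 0.000105) and IL17RC (-0.54, adjusted p = 0.000395) and the epithelial transcription factor gene ELF3 (-0.28, adjusted p = 0.0017). The 4 tested but not called were IL1B (-0.09, adjusted p = 0.33), STAT3 (0.02, adjusted p = 0.77), CEBPB (0.15, adjusted p = 0.10) and OSMR (0.04, adjusted p = 0.55). They were named after their values were seen.

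**Figure D4:**
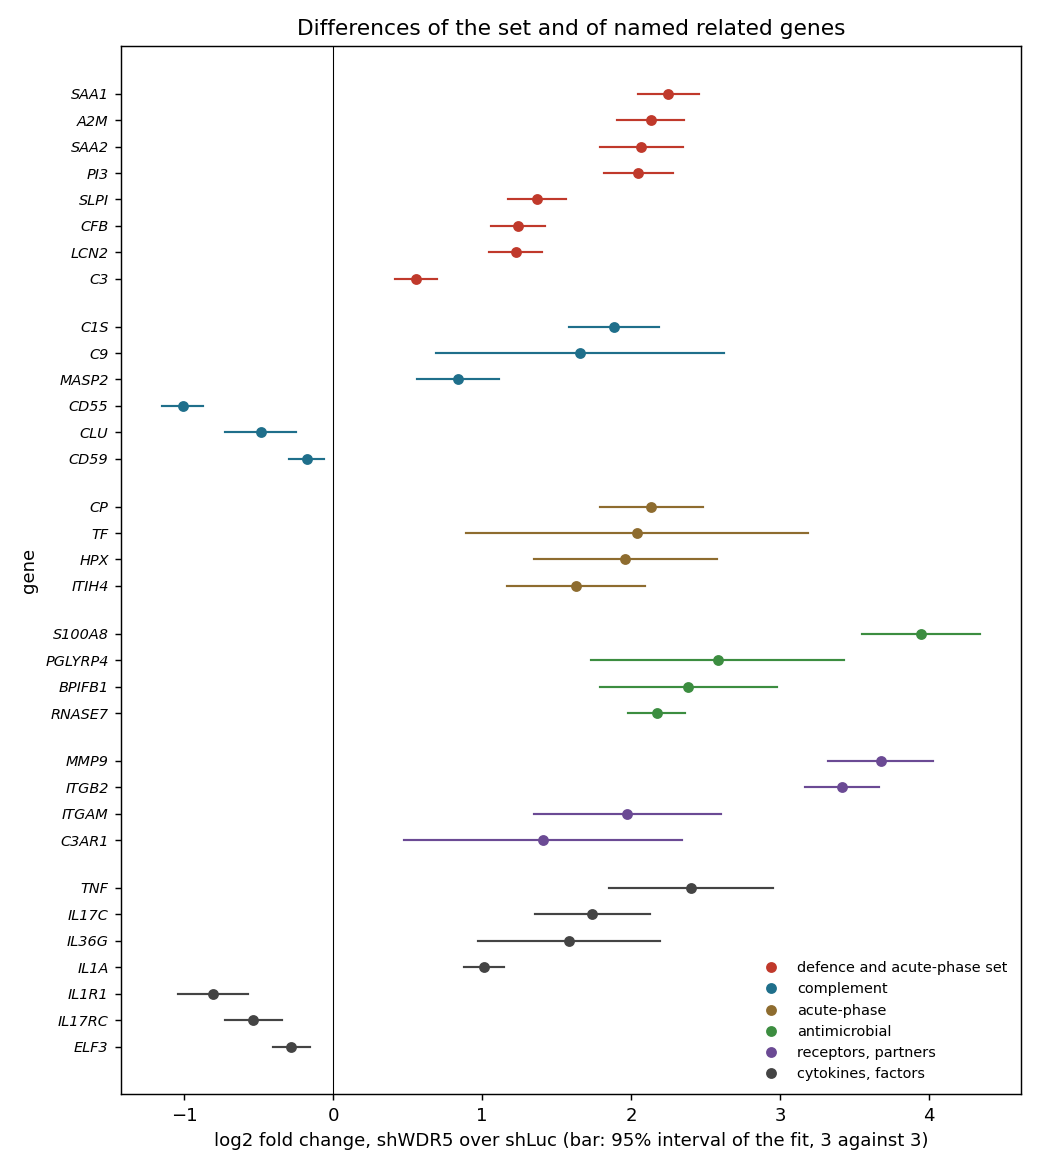
Log2 fold change of shWDR5 over shLuc (x axis) with the 95% interval of the fit, 3 samples against 3. Shown are the 8 measurable genes of the set (red) and the called genes named from the 5 related lists by size of change. The set lies between 0.56 for C3 and 2.25 for SAA1, and S100A8, MMP9 and ITGB2 lie farthest to the right, while CD55 and IL1R1 are the lowest.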

How the data were processed

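Poly(A) RNA-seq of 3 shLuc and 3 shWDR5 samples was analysed from the deposited table of read counts per gene, which the authors made with TopHat2 2.1.0 on hg19 (GRCh37) and featureCounts, without normalization. The version of featureCounts, its strand setting and the read length are not given in the sources used here. A second deposited table holds the authors' own edgeR 3.2.2 comparison (fold changes, p-values) and was not used.

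Counts were filtered with filterByExpr by group, scaled by TMM and tested with edgeR 4.0.16 (R 4.3.3) by the quasi-likelihood F-test, shWDR5 against shLuc, with Benjamini-Hochberg adjustment over the 16117 genes tested and a call at an adjusted p under 0.05. SE is the log2 fold change divided by the square root of F, and intervals are 95%. RPKM used the table's gene lengths. The 10 genes and the 5 related lists (complement, acute-phase, antimicrobial, receptors and targets, upstream) were chosen with earlier results of these data known. Genes named from a list were those called with the largest log2 fold changes in each direction, at most 4 in each, and others are said where named to have been chosen after their values were seen. One complement gene that the rule names is not reported here. Hg19 positions came from the count table and sequences from GENCODE v29 and RefSeq. Total counts per sample limit the precision of low genes, and the exact interval for DEFB4A covers counting error only. Alternatives were RLE size factors, library totals, other count filters, DESeq2 1.42.0, a replicate block and leaving out each sample. The test was checked on simulated counts.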

Additional observations from a re-analysis of the deposited data

How the results depend on the processing

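The 8 measurable genes of the set kept their direction and their side of the threshold under all alternative normalizations, filters and models run and without each sample in turn, with A2M between 2.07 and 2.18 and C3 between 0.50 and 0.60 on the log2 scale. Without a low-count filter DEFB4A, at no more than 7 reads per sample, was called as well, which made 9. In that setting 4360 of 21785 genes tested were called higher, and nothing is read from the count of 9. Leaving out each sample in turn gave 8120 to 8847 genes called (9112 with all samples), of which 3803 to 4263 higher and 4271 to 4584 lower. With genes over 1 CPM in at least 3 samples, 5 acute-phase genes were called in place of 9, since fewer were tested. With the fold and level thresholds of the study (log2 fold change of at least 0.6, RPKM over 0.5), 2961 genes were called, 1272 higher (7.89%) and 1689 lower (10.5%). Under these, 7 of the set remained, C3 being under the fold limit, with 4 complement, 3 receptor or target and 9 upstream genes in place of 8, 8 and 19. A2M met the level limit only in shWDR5, the group where it was higher. The shared replicate numbers were not taken as pairs. Same-numbered samples deviated together with correlations of 0.636, 0.0806 and 0.242, and shLuc Rep2 was closest to shWDR5 Rep3. The Rep1 samples had the highest correlation of all such pairs. On the second principal component of log2 CPM they lay at 12.3 (shLuc) and 11.3 (shWDR5), with the other samples between -9.59 and -2.65. A factor shared by the Rep1 samples was not tested. With the replicate block 10412 genes were called and the 8 genes stayed called. Low counts limit DEFB1, DEFB4A, C9, TF and C3AR1.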
